A study of Mus musculus with 18 samples.

Results

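The basal effect of losing Gcn2 in liver was described by setting the livers of Gcn2-/- mice given PBS beside those of wild type (WT) mice given PBS. A gene was a member of the comparison when its value had the status OK and was above 0 in both groups and its FPKM, the number of fragments scaled to transcript length and to the size of the library, was over 3 in either group. Of the 37303 genes in the deposited table, 8920 met these conditions. The 45 of them that belong to a list of striated muscle genes were counted apart, which left 8875 genes. The limit on FPKM fell between Prkaa1, at 3.001 in WT livers and just inside, and Slc17a9, at 2.999 and just outside.

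The study took 18 livers in 6 groups of 3 mice, which were WT, Gcn2-/- or Atf4-/- and received either PBS or the drug asparaginase (ASNase). The 6 mice compared here received PBS by intraperitoneal injection once a day for 8 days and were killed 7.5 h after the last injection. All mice were on the C57BL/6J background, the knockout lines were backcrossed to it for at least 8 generations, and the ages in the labels are 8 to 16 weeks in one field and 8 to 12 in another. In both groups 1 of the 3 mice was male by the labels. The Gcn2-/- mice carry the deletion in every tissue from conception on. An effect in hepatocytes and an effect that reaches the liver from elsewhere therefore cannot be told apart.

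GCN2 is a protein kinase that binds uncharged tRNA. When an amino acid runs short it phosphorylates the translation factor eIF2, which slows protein synthesis in general and raises translation of the transcription factor ATF4, whose targets include amino acid transporters, asparagine synthetase and tRNA synthetases. This is one arm of the integrated stress response. The liver is also where the plasma acute phase proteins are made, under the control of IL-6, IL-1 and glucocorticoids, and where growth hormone, bile acids and feeding set large programmes of gene expression.

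For each gene the table gives 1 FPKM value per group with a lower and an upper bound, and Cuffdiff made it by pooling 3 libraries. It has no value of a single mouse, so no SD, n or p-value can be given, and no difference reported here has a replicate check. The bounds, given in brackets after each value, serve as its error. Among genes over 3 FPKM the upper bound lay a median of 51.8% above the value in WT PBS and 51.3% in Gcn2-/- PBS livers. Differences are on the scale of log2(FPKM + 0.1), Gcn2-/- minus WT, so that changes of weakly expressed genes are understated. A call was made when this difference was over 1.5 in size and the intervals of the groups did not overlap, and rose and fell are used of called genes only. A looser limit, added after the data were seen, asked that the difference in FPKM exceed the root of the summed squared widths of the upper arms of both intervals and that the log2 difference be over 1.

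Hepatocyte markers were at like levels in both groups, with a summed FPKM of 68287 in WT and 72403 in Gcn2-/- livers over 24 genes. Transcripts of other tissues were not. The 126 striated muscle genes summed to 1757 FPKM in WT PBS, 2502 in WT ASNase and between 104 and 395 in the other 4 groups, and 33 of the 45 eligible ones were called, all lower in Gcn2-/- livers. Lung epithelium markers summed to 136 FPKM in WT PBS livers and to between 1.27 and 3.21 in every other group. Whether tissue carried over at dissection has a part in other differences was not tested.

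Outside the muscle list, 60 of 8875 genes (0.676%) were called, 35 higher (0.394%) and 25 lower (0.282%) in Gcn2-/- livers. Of the 35 higher genes, 16 were protein-coding and 14 were short non-coding RNAs such as small nucleolar RNAs. Of the 25 lower genes, 20 were protein-coding, and 6 of these followed the muscle list over the 6 groups (Pearson r over 0.95 with its median, n = 6 groups). By the looser limit 65 genes were higher (0.732%) and 76 lower (0.856%). The median log2 difference over all 8875 genes was 0.06, with 60.4% of genes on the higher and 39.6% on the lower side. After median-ratio scaling of the groups these shares were 50.6% and 49.4%, and the sides of list members are to be read against both.

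**Figure D1:**
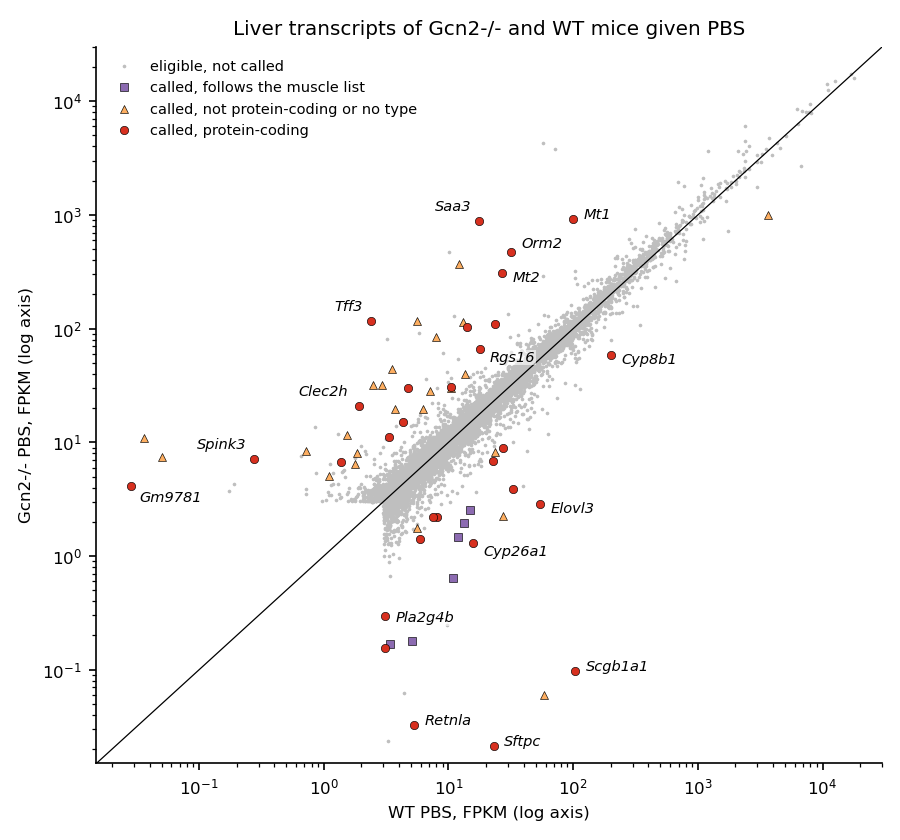
FPKM in Gcn2-/- PBS livers (vertical, log axis) against WT PBS livers (horizontal, log axis) for the 8875 eligible genes outside the muscle list, 1 value per group, with the line of equal values. The called genes are in colour: Saa3, Orm2, Mt1 and Mt2 stand above the line at high levels, and Scgb1a1 and Sftpc, markers of lung, stand far below it.

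Eif2ak4, the gene that encodes GCN2 (ENSMUSG00000005102, chromosome 2 from 118388618 to 118475234, plus strand, GRCm38), was at 3.04 FPKM (0.268 to 5.82) in WT and 2.31 (1.05 to 3.57) in Gcn2-/- livers. The intervals overlapped, so the summed value of the gene did not separate the groups. A value summed over exons does not show which exons are missing, and reads over the deleted exon were not analysed here. The paper reports from plots of RNA read density that this exon is absent in Gcn2-/- mice.

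In the pathway that GCN2 starts, 1 gene was called, where 0.676% of all genes were. None of 20 genes for the eIF2 kinases, eIF2 itself and their partners was called, with log2 differences from -0.38 to 0.33 and a median of 0.05. Atf4 mRNA was at 50.4 FPKM (29.7 to 71.1) in WT and 60.0 (35.1 to 85.0) in Gcn2-/- livers. Of 27 eligible ATF4 targets, 12 were on the higher and 15 on the lower side, with a median of -0.01. Only Ddit4 among them was called.

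Ddit4, whose protein REDD1 restrains mTORC1, fell from 8.15 FPKM (3.99 to 12.3) to 2.19 (0.852 to 3.53), which is -1.85 on the log2 scale. Fgf21, a hormone the liver secretes in fasting and amino acid shortage, went the other way, at 2.14 (0.434 to 3.85) in WT and 8.31 (3.05 to 13.6) in Gcn2-/- livers. It passed the looser limit, with overlapping intervals, and was the 1 ATF4 target to do so upward, against 0.732% of all genes. The other targets passed neither limit. Asns, asparagine synthetase, was at 2.50 (0 to 6.93) and 4.77 (0.486 to 9.05), Trib3, a pseudokinase that binds ATF4, at 5.46 and 7.52, and Atf5, another bZIP factor of the response, at 160 and 143.

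The acute phase proteins were the list with the largest shift to the higher side. Of 35 eligible members 4 rose (Saa3, Orm2, Mt2 and Mt1), 0 fell and 7 passed the looser limit, all higher, where 0.394% of all genes rose and 0.732% passed the looser limit on that side. The median log2 difference was 0.73 against 0.06 over all genes, and 30 of 35 members were on the higher side, also after median-ratio scaling. Earlier results of these data had shown several of these genes to be high when the list was chosen.

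Saa3, a serum amyloid A made by liver and macrophages (chromosome 7 from 46711998 to 46715700, minus strand), rose from 17.7 FPKM (8.00 to 27.4) to 876 (57.6 to 1694), a difference of 5.62. Orm2, an orosomucoid or alpha-1-acid glycoprotein (chromosome 4 from 63362449 to 63365878, plus strand), rose from 31.6 (16.1 to 47.0) to 470 (54.2 to 885), a difference of 3.89. The lower bound in Gcn2-/- livers was far below the value for both, so the size of the change is loosely fixed although the intervals are separate.

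The metallothioneins, small proteins that bind zinc and copper, were more tightly bounded. Mt1 (chromosome 8 from 94179082 to 94180327, plus strand) rose from 100.4 FPKM (54.3 to 146) to 923 (390 to 1456), a difference of 3.20. Mt2 (chromosome 8 from 94172664 to 94173568, plus strand), its neighbour, rose from 27.0 (12.4 to 41.7) to 306 (125 to 487), a difference of 3.50. Both genes answer to glucocorticoids, cytokines and metals.

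To show what the regulatory sequence of these genes holds, the 250 bases before the RefSeq start (GRCm38.p6) are printed 5′ to 3′ for the 3 of them with a match to one of the motifs searched. Capitals mark the matches. The motifs, on both strands, were NF-kB (GGGNNTTCC or GGGNTTTCC), C/EBP (TTGCNNAA or TTGNGCAA) and STAT (TTCNNNGAA), and for the metallothioneins a metal response element (TGCGCNC), which was added after the data were seen. The Saa3 window is chr7:46715677-46715926 on the minus strand, the Orm2 window chr4:63362199-63362448 on the plus strand and the Mt2 window chr8:94172368-94172617 on the plus strand.
Saa3: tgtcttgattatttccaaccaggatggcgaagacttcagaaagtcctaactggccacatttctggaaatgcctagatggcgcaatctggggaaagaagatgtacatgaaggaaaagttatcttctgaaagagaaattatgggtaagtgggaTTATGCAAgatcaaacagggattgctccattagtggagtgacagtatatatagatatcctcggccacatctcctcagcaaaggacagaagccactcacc
Orm2: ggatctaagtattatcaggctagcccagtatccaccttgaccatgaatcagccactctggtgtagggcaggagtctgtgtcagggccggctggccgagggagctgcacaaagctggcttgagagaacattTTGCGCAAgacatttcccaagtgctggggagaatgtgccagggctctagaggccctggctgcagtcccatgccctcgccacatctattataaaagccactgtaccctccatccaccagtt
Mt2: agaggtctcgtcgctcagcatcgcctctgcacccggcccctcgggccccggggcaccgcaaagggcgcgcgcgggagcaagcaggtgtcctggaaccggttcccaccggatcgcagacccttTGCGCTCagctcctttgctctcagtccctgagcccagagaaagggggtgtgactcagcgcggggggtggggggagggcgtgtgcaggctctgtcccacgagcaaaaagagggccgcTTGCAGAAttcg
Of the windows of Saa3, Orm2, Mt1 and Mt2, 3 held 1 C/EBP match each. The printed windows were picked because they held a match. Positions are counted from the RefSeq start, where -1 is the base before it. That start differs from the gene coordinates given above for Saa3, Mt1 and Mt2, and is the same for Orm2. The match lay from -99 to -92 in Saa3, on the minus strand, and from -120 to -113 in Orm2, where both strands hold it. In Mt2 it lay from -12 to -5, and the metal response element from -128 to -122. The window of Mt1, chr8:94178839-94179088 on the plus strand, held no match to these letters. This covers those 250 bases only. Bases downstream of the window were not searched, nor were other forms of the element, so the Mt1 promoter may still hold it. No window held the NF-kB or STAT letters. Among all 32851 promoter windows of 250 bases in the table, 9.56% held the C/EBP letters, 4.98% the NF-kB, 7.02% the STAT and 12.5% the metal response letters. A match describes the letters and is no evidence of binding.

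The other acute phase genes were not called. Lcn2, lipocalin 2, which withholds iron from bacteria, was at 10.1 FPKM (4.78 to 15.5) in WT and 472 (13.4 to 931) in Gcn2-/- livers, and its intervals just overlapped. Saa1 was at 70.9 (39.3 to 103) and 3784 (0 to 11306), and Saa2 at 56.9 (31.1 to 82.7) and 4273 (0 to 12331). These 2 genes are nearly identical in sequence, and reads could be assigned to either. Spread between mice and uncertainty in assigning reads cannot be told apart in such intervals.

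The rest of the list ranged from higher values to equal ones. Il1rn, the antagonist of the IL-1 receptor, was at 2.17 FPKM (0.355 to 3.99) in WT and 7.94 (3.06 to 12.8) in Gcn2-/- livers, and Apcs, serum amyloid P, at 103 (59.0 to 147) and 278 (131 to 426), both past the looser limit. Hp, haptoglobin, was at 1214 (468 to 1960) and 3656 (0 to 8732), and Hamp, the iron hormone hepcidin, at 2402 (1170 to 3634) and 4466 (1854 to 7078). Crp was at 266 and 264, and Saa4, a serum amyloid that is made at rest, at 129 and 119.

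**Figure D2:**
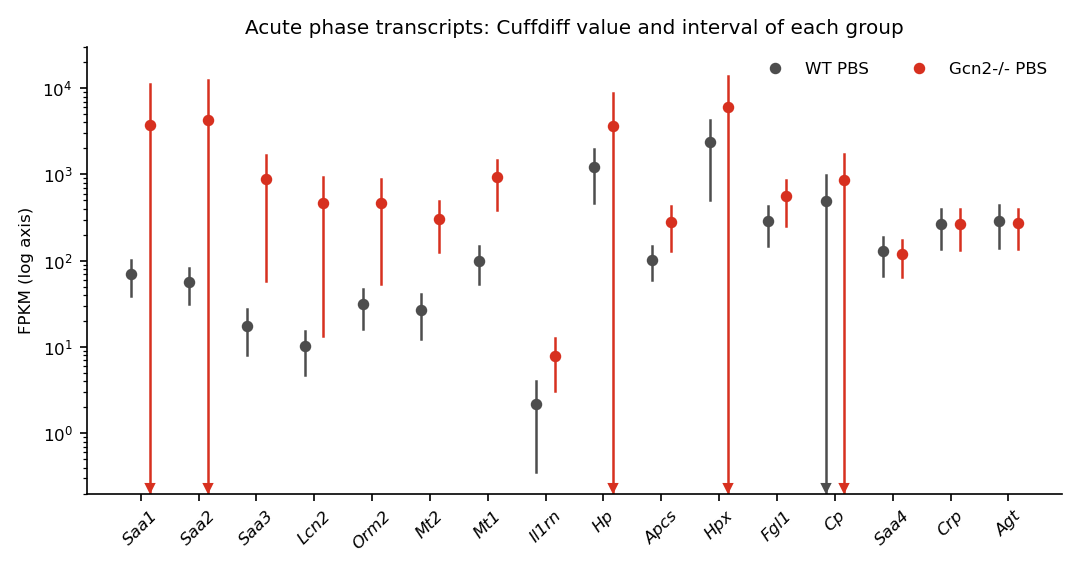
FPKM (log axis) of 16 acute phase genes in WT PBS (grey) and Gcn2-/- PBS (red) livers, with points for the group value and bars for the Cuffdiff interval. A triangle at the bottom marks a lower bound of 0. The intervals are separate for Saa3, Orm2, Mt2 and Mt1, while the bars of Saa1, Saa2, Hp and Hpx reach 0 in Gcn2-/- livers and those of Cp in both groups.

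Transcripts of pathways known to control acute phase genes did not share the shift. The activity of their proteins was not measured, and what lies behind the acute phase values was not tested. Of 24 eligible genes of IL-6, IL-1 and NF-kB signaling 0 were called and 0 passed the looser limit, with a median of -0.03. Socs3, a feedback inhibitor induced by IL-6, was at 3.36 FPKM (0 to 9.48) in WT and 4.93 (1.43 to 8.44) in Gcn2-/- livers, and Stat3 at 24.2 and 23.9. Cebpb, the C/EBP factor of the acute phase, was at 63.4 (29.5 to 97.4) and 38.02 (18.3 to 57.7). Of 10 eligible chemokines and receptors only Cxcl1, which draws neutrophils, passed the looser limit, upward, against 0.732% of all genes. It was at 2.98 (0.954 to 5.001) in WT and 9.15 (4.16 to 14.1) in Gcn2-/- livers.

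Interferon-stimulated genes lay on the lower side. Of 40 eligible members 33 were lower, with a median of -0.39, and 1 rose, 1 fell and 2 passed the looser limit downward, where over all genes 0.394% rose, 0.282% fell and 0.856% passed the looser limit downward. The antiviral genes Oasl1, Irf7 and Isg15 were each lower by 0.68 to 0.98, none of them past either limit. Irf7, for example, was at 34.5 FPKM (12.0 to 57.0) in WT and 18.6 (6.82 to 30.3) in Gcn2-/- livers. The called members were guanylate binding proteins, Gbp10, which fell from 5.56 (3.03 to 8.09) to 1.75 (0.753 to 2.74), and Gbp11, which rose from 1.84 (0.797 to 2.88) to 8.00 (4.06 to 11.9). These GTPases lie in a cluster of near-identical copies, with Gbp6 at 5.04 and 2.19, so the split of reads between them is uncertain.

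Antigen presentation genes were lower to a like degree. Of 22 eligible members of the MHC list 18 were lower and 0 were called, with a median of -0.39. Cd74, the invariant chain of MHC class II, was at 108 FPKM (59.5 to 157) in WT and 54.0 (30.7 to 77.4) in Gcn2-/- livers and passed the looser limit. Of the 22 members it was the 1 past that limit, against 0.856% of all genes downward. H2-Eb1, a class II chain, was at 31.6 (17.8 to 45.5) and 19.2 (10.4 to 28.1).

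Markers of the cells that line the sinusoids lay on the lower side. Of 15 eligible markers of liver sinusoidal endothelium 14 were lower, with a median of -0.94, and 5 passed the looser limit, all downward, against 0.856% of all genes. None was called. Their summed FPKM over 17 genes was 269 in WT PBS, 165 in Gcn2-/- PBS and 280 in Atf4-/- PBS livers. In bulk RNA, fewer cells of a type and less RNA per cell cannot be told apart. The part of tissue carried over into WT livers in these values was not tested.

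Among these genes Cdh5, the cadherin of endothelial junctions, was at 8.78 FPKM (5.10 to 12.5) in WT and 3.65 (2.01 to 5.29) in Gcn2-/- livers, and Pecam1, a general endothelial adhesion protein, at 7.84 (4.496 to 11.2) and 3.49 (1.82 to 5.16). Clec4g, a lectin of the sinusoid, was at 64.1 (37.0 to 91.3) and 31.5 (17.8 to 45.3). In all of these the upper bound in Gcn2-/- livers lay inside the WT interval. Jam2 and Dnase1l3 were the other genes past the looser limit, with differences of -1.45 and -1.35. Lyve1 was at 5.19 and 3.57, and Stab2, a scavenger receptor, at 11.7 and 7.41.

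Wnt2, a ligand that endothelial cells around the central vein give to hepatocytes, was below the FPKM limit and was looked at after its value was seen. It was at 2.74 FPKM (1.1997 to 4.28) in WT and 0.574 (0.117 to 1.03) in Gcn2-/- livers, with separate intervals. Rspo3, which strengthens the same signal, was at 2.53 (1.18 to 3.88) and 1.81 (0.735 to 2.88).

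Kupffer cell and macrophage markers went the same way with less weight. Of 16 eligible markers 13 were lower, with a median of -0.68, and 2 passed the looser limit downward, against 0.856% of all genes. These were Cd163, the haemoglobin scavenger receptor, at 4.25 FPKM (2.41 to 6.09) in WT and 1.59 (0.770 to 2.40) in Gcn2-/- livers, and Folr2 at 17.9 (9.82 to 26.0) and 7.15 (3.44 to 10.9). Clec4f, which only Kupffer cells express, was at 96.8 (34.6 to 159) and 67.3 (27.6 to 107). Marco, a scavenger receptor that rises on activation, was on the other side, at 5.69 and 8.32.

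Circulating cells and mesenchyme gave smaller signals. The 4 globin genes listed were lower by 0.87 to 0.93, Hbb-b1 for example at 122 FPKM (69.2 to 175) in WT and 66.0 (35.5 to 96.6) in Gcn2-/- livers. Of 11 eligible stellate cell, fibroblast and smooth muscle genes 10 were lower, but with a median of -0.14 and 0 past the looser limit. Neutrophil, B cell, T and NK cell markers were almost all under the FPKM limit in both groups, with 2, 0 and 1 eligible genes. S100a8, a neutrophil protein, was at 3.87 in WT and 5.20 in Gcn2-/- livers.

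**Figure D3:**
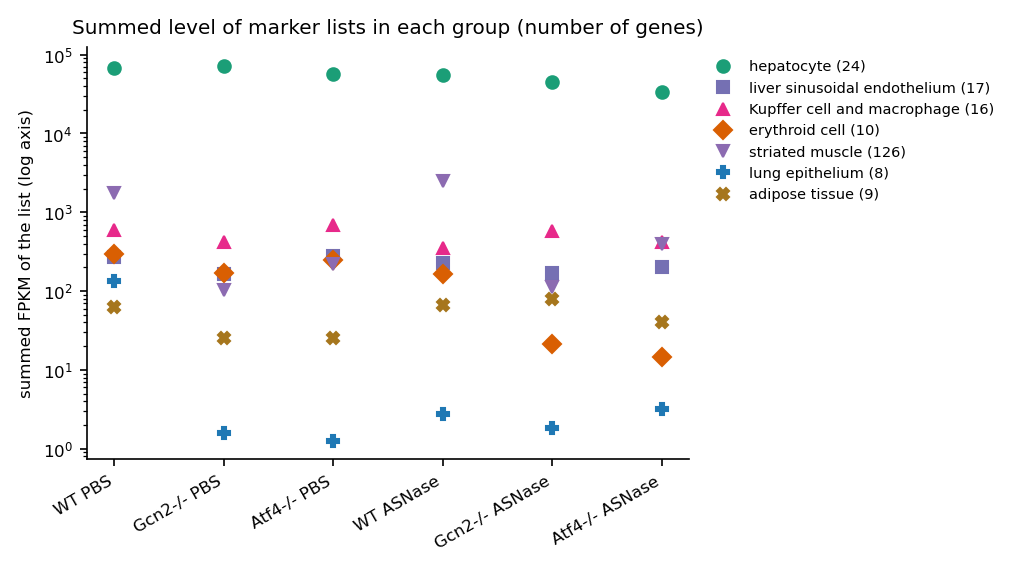
Summed FPKM (log axis) of 7 marker lists in the 6 groups, 1 point per list and group, with the number of genes summed in brackets. Lung markers stand at 136 FPKM in WT PBS and between 1.27 and 3.21 elsewhere, muscle genes are highest in both WT groups, and the sinusoidal endothelium list is lowest in Gcn2-/- PBS at 165.

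Of the hepatocyte, metabolic and immune lists, genes with a male-biased level in mouse liver had the lowest median, -0.95 over 22 eligible genes, of which 16 were lower. Of the 3 eligible sex markers, Xist, which females express, differed by 0.49. The Y-linked Ddx3y and Eif2s3y differed by 0.14 and -0.11, and none of the 3 was called. With 1 male of 3 in each group, a difference between those 2 mice and a difference between the genotypes cannot be told apart for such genes.

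Elovl3, an enzyme that lengthens fatty acids, fell from 54.0 FPKM (12.6 to 95.5) to 2.84 (0.878 to 4.81), a difference of -4.20. Its locus in the table is shared by 2 genes. With it, 6 of the 22 male-biased genes passed the looser limit downward, against 0.856% of all genes. Cyp4a12a, which hydroxylates fatty acids, was at 63.3 (13.8 to 113) in WT and 11.7 (3.66 to 19.8) in Gcn2-/- livers, and Slco1a1, an uptake transporter for organic anions, at 103 (43.3 to 162) and 32.1 (15.7 to 48.6). Mup21, a major urinary protein with many near-identical copies, was at 113 (35.7 to 190) and 29.2 (15.7 to 42.6). The others were Susd4 (-1.57) and Ces2e (-1.03).

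Female-biased genes did not mirror this. Of 33 eligible members 22 were on the higher side, 19 after scaling, with a median of 0.18. The looser limit was passed upward by 2 and downward by 1, against 0.732% and 0.856% of all genes. Abcd2, a peroxisomal transporter of fatty acids, was at 13.5 FPKM (7.44 to 19.6) in WT and 27.8 (15.2 to 40.4) in Gcn2-/- livers. Cyp2b13 was at 73.7 (31.2 to 116) and 24.6 (12.3 to 36.9). Both directions were thus present within the list.

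Growth hormone, whose pattern of release sets most of these sex differences, acts through JAK2 and STAT5. Of 24 eligible genes of its axis 20 were on the higher side, with a median of 0.31. Only Socs2 passed the looser limit, upward, against 0.732% of all genes. Socs2, a STAT5 target that damps the receptor, was at 6.61 FPKM (2.19 to 11.0) in WT and 35.7 (10.9 to 60.5) in Gcn2-/- livers. Other targets had wide intervals that reached 0, such as Cish at 5.50 (0 to 12.2) and 14.2 (0 to 33.1) and Cux2 at 1.18 (0 to 3.23) and 4.28 (0 to 8.61). Igf1, the main endocrine output, was at 490 (88.5 to 891) and 630 (102 to 1159), and the receptor gene Ghr at 231 and 213.

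**Figure D4:**
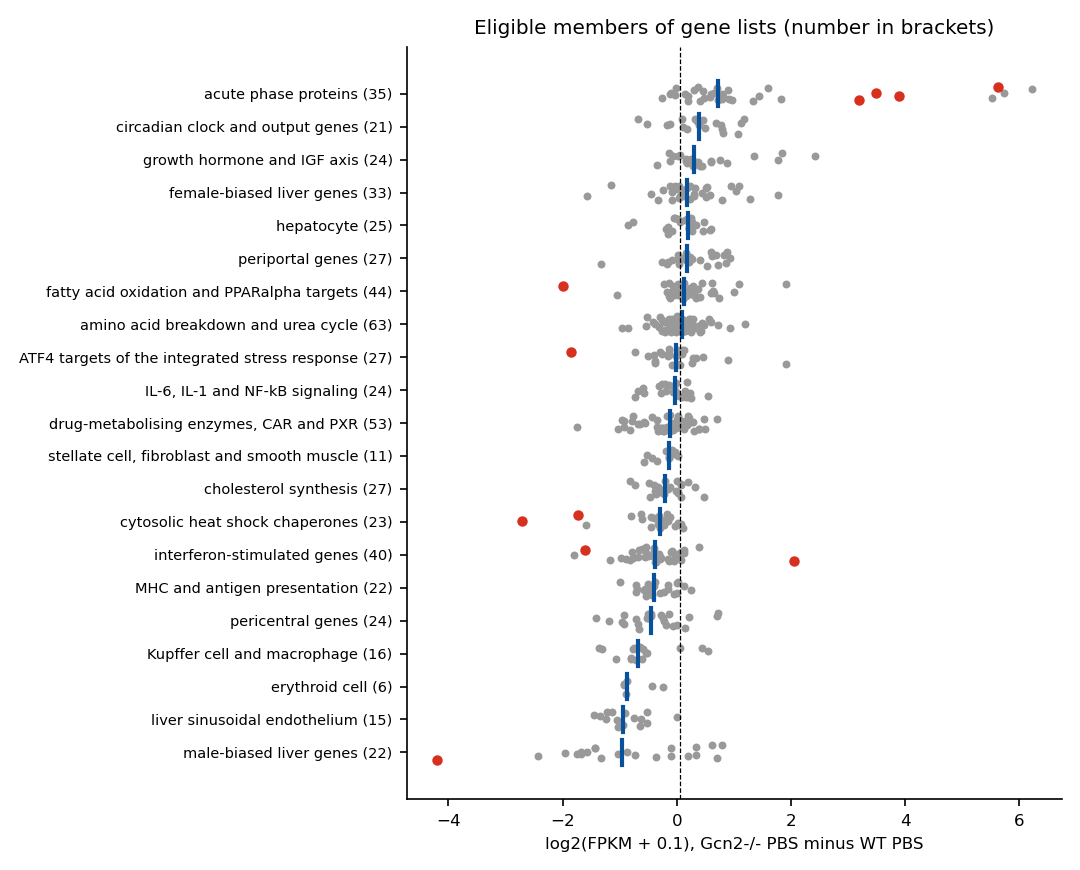
Log2 difference in FPKM + 0.1, Gcn2-/- PBS minus WT PBS, for the eligible members of 21 gene lists (muscle genes left out), each point a gene, red where called, with a blue bar at the list median and a dashed line at the median of all 8875 genes. Acute phase proteins (median 0.73) lie to the right, and sinusoidal endothelium (-0.94) and male-biased genes (-0.95) to the left, while ATF4 targets (-0.01) sit at the centre.

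In bile acid synthesis Cyp8b1, the sterol 12-alpha-hydroxylase that fixes the share of cholic acid, fell from 201 FPKM (95.9 to 306) to 58.2 (33.2 to 83.2), a difference of -1.79. The rate-limiting enzyme Cyp7a1 was at 124 (0 to 520) and 75.8 (0 to 283), and the list of 30 eligible genes had a median of 0.03.

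In retinoid metabolism Cyp26a1, which clears retinoic acid and is itself induced by it, fell from 15.7 FPKM (8.45 to 23.04) to 1.30 (0.412 to 2.18), a difference of -3.51. Its relative Cyp26b1, below the FPKM limit and looked at after its value was seen, was at 2.07 (1.02 to 3.12) in WT and 0.10004 (0 to 0.204) in Gcn2-/- livers, with separate intervals. Aldh1a1, which makes retinoic acid, was at 666 (234 to 1097) and 265 (131 to 398). The list of 26 eligible genes was balanced, with 13 on each side.

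Of 35 eligible genes of gluconeogenesis, glycolysis and glycogen 24 were on the lower side, with a median of -0.12, 2 fell and 5 passed the looser limit downward, against 0.282% and 0.856% of all genes. After scaling 27 of the 35 were lower. G6pc, which releases glucose, was at 202 FPKM (103 to 301) in WT and 80.2 (25.8 to 135) in Gcn2-/- livers, whereas Pck1, the other key enzyme of glucose output, was at 1051 and 1074. Pkm was at 14.8 (8.50 to 21.1) and 5.36 (2.89 to 7.84). Ldhb, which fell from 11.9 (6.23 to 17.6) to 1.47 (0.428 to 2.52), followed the muscle list with r = 0.97. Pdk4, a brake on pyruvate oxidation that counts here and among the fatty acid oxidation genes, fell from 5.88 (2.92 to 8.84) to 1.40 (0.455 to 2.35), with r = 0.93. The part of carried-over muscle in the lower values of this list, Pkm among them, was not tested.

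In lipid metabolism the lists held 1 called gene each or none. Of 44 eligible genes of fatty acid oxidation 31 were on the higher side, with a median of 0.13. Pdk4 alone was called, against 0.676% of all genes. Of 29 eligible genes of fatty acid synthesis 3 passed the looser limit downward, against 0.856% of all genes. Besides Elovl3, already given, these were Tsku, a secreted protein, at 32.6 FPKM (14.7 to 50.6) and 10.1 (5.24 to 14.9), and Lpin1, a phosphatidate phosphatase, at 39.2 (19.4 to 59.0) and 17.9 (10.4 to 25.4). Of 27 cholesterol synthesis genes 18 were lower, with a median of -0.21 and 0 past either limit, and 21 were lower after scaling.

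Amino acid breakdown and the urea cycle, the pathways nearest to what GCN2 senses, held 63 eligible genes, of which 0 were called and 0 passed the looser limit, with differences from -0.95 to 1.196 and a median of 0.09. The same held for 53 drug-metabolising genes (median -0.12), 45 NRF2 and glutathione genes (-0.08), 29 ER chaperones and sensors (-0.01), 30 iron and heme genes (0.02) and 12 cell cycle genes (0.06). After scaling 37 of the 53 drug-metabolising and 32 of the 45 NRF2 and glutathione genes were lower. With intervals of this width a change below about the looser limit could not be seen in a single gene.

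Zonation lists moved apart by a small amount. Of 24 eligible pericentral genes 19 were lower, with a median of -0.45, and of 27 periportal genes 22 were on the higher side, with a median of 0.18, a number that fell to 18 after scaling. Glul, glutamine synthetase, which only the last hepatocytes before the central vein express, was at 452 FPKM (0 to 921) in WT and 233 (27.1 to 440) in Gcn2-/- livers. Rhbg, an ammonia transporter of the same cells, was at 8.14 (4.14 to 12.1) and 3.53 (1.36 to 5.71). It was the 1 pericentral gene past the looser limit, downward, against 0.856% of all genes. Cyp2e1 was at 3927 and 3369.

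Cytosolic heat shock chaperones were lower as a list, 19 of 23 eligible genes, with a median of -0.30. Of these 2 fell, against 0.282% of all genes, and 1 of the 2 followed the muscle list. Hspa1b, the inducible HSP70, fell from 7.49 FPKM (4.08 to 10.9) to 2.18 (0.997 to 3.37). It has a near-identical copy, Hspa1a, at 0.512 and 0.152, between which reads could be split. Cryab, alpha-crystallin B, which muscle also makes, fell from 13.4 (7.17 to 19.6) to 1.96 (0.636 to 3.29) and followed the muscle list with r = 0.97.

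Immediate early genes were mixed, with 14 of 23 on the higher side and a median of 0.07, and 2 rose, against 0.394% of all genes. Egr1, a zinc finger factor induced within minutes of many stimuli, rose from 3.34 FPKM (1.72 to 4.95) to 11.2 (6.05 to 16.3). Klf10, induced by TGF-beta, was at 6.44 (3.66 to 9.22) in WT and 14.9 (8.75 to 21.0) in Gcn2-/- livers, and Gadd45a, a stress-induced growth arrest gene, at 1.79 (0.3005 to 3.28) and 7.33 (2.98 to 11.7), both past the looser limit. Of the 23 genes of this list 4 passed that limit, all upward, against 0.732% of all genes. Sgk1, a kinase induced by glucocorticoids, was at 20.3 (8.26 to 32.2) and 8.25 (4.15 to 12.4). Rhod rose from 14.1 (7.38 to 20.9) to 103 (95.2 to 111), but its locus in the table is shared by 3 genes and its reads may belong to another of them.

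Genes of the circadian clock and its output were slightly higher, 17 of 21 with a median of 0.38, and none passed either limit. Dbp, an output factor, was at 44.1 FPKM (0.614 to 87.6) in WT and 96.8 (22.2 to 171) in Gcn2-/- livers, and Per3 at 4.41 (1.79 to 7.03) and 10.1 (4.83 to 15.5). Arntl, which encodes BMAL1, was below the FPKM limit at 1.31 (0.531 to 2.098) and 0.367 (0.0840 to 0.650). The labels place injection in the morning and death 7.5 h later for all groups.

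The protein-coding genes in no list that rose were 10, of which Gm9781, Tff3 and Spink3 had the largest differences. Tff3, a trefoil peptide of mucus (chromosome 17 from 31125306 to 31129646), rose from 2.38 FPKM (0.00381 to 4.76) to 116 (39.1 to 193), a difference of 5.55. Spink3, a trypsin inhibitor best known from pancreas (chromosome 18 from 43728082 to 43737557), rose from 0.278 (0 to 0.647) to 7.12 (0.992 to 13.3). Gm9781 (chromosome 18 from 43475418 to 43477796) rose from 0.0282 (0 to 0.0749) to 4.15 (2.18 to 6.12).

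The 12 pancreatic acinar markers summed to 13.4 FPKM in WT and 10.6 in Gcn2-/- livers, with 1 and 9 of them listed at 0, and their part in the rise of Spink3 was not tested. Tff3 is made by goblet and duct cells, and cholangiocyte markers summed to 48.1 and 48.0 over 10 genes. Krt23, a keratin, was the 1 of the 3 eligible genes on that list past the looser limit, against 0.732% of all genes upward. It was at 1.47 (0.424 to 2.52) and 4.95 (2.39 to 7.51).

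The other 7 of the 10 rose by less. Clec2h, a C-type lectin, rose from 1.90 FPKM (0.785 to 3.02) to 20.9 (11.1 to 30.7), and Cib3, a calcium binding protein, from 4.74 (1.53 to 7.94) to 29.97 (15.6 to 44.3). Arrdc3, an arrestin-like adaptor of receptors, rose from 23.7 (10.8 to 36.6) to 109 (44.1 to 174), and Rgs16, a brake on G protein signaling, from 17.8 (8.56 to 27.0) to 65.7 (37.3 to 94.1). Dsg1c, a desmosomal cadherin, Rnf186, a ubiquitin ligase, and D0H4S114 rose by 2.204, 1.78 and 1.53. None of these 7 genes is in a list used here.

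The lowest called gene in no list was Gm5560, a processed pseudogene, which fell from 58.4 FPKM (57.3 to 59.5) to 0.0598 (0 to 0.793). Reads of a pseudogene may belong to its parent gene, so this value is uncertain. Rtn2 and Fhl1 followed the muscle list (r = 0.98 and 0.97), and Slc25a4, the ADP/ATP carrier of heart and muscle, Mlf1 and the imprinted non-coding RNA H19 came near it (r = 0.93, 0.92 and 0.90). H19, for example, fell from 27.2 FPKM (13.5 to 40.9) to 2.26 (0.611 to 3.91). Retnla, made by alternatively activated macrophages and fat, fell from 5.31 (0.880 to 9.74) to 0.0328 (0 to 0.171), and Cfd, adipsin, which is in the complement and adipose lists, from 10.8 (4.21 to 17.4) to 0.641 (0 to 1.42), with r = 0.88 and 0.97. Scgb1a1 and Sftpc, of the lung list, were at 104 and 23.1 in WT PBS and at or under 0.326 in all other groups. The part of carried-over tissue in these falls was not tested.

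That left Pla2g4b, Ly6a and Tubb2a. Pla2g4b, a phospholipase A2, fell from 3.09 FPKM (0.997 to 5.18) to 0.298 (0 to 0.777). Ly6a, or Sca-1, a surface protein induced by interferon, fell from 22.7 (12.2 to 33.1) to 6.83 (2.92 to 10.8), and Tubb2a, a beta-tubulin, from 27.2 (16.1 to 38.4) to 8.91 (4.65 to 13.2). Tubb2a has a close paralog. Their r with the muscle list was 0.79, 0.15 and 0.10.

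Atf4-/- mice given PBS were compared with the same WT PBS livers, so their values are only set beside these. In Atf4-/- PBS livers Mt1 and Mt2 were at 1063 FPKM (522 to 1604) and 721 (366 to 1076), and Orm2 at 314 (84.1 to 543). Saa3 was at 23.2 (11.6 to 34.9) there, near the WT value of 17.7, and Spink3 at 0.212 and Gm9781 at 0.0306 were near theirs. Tff3 was at 8.45 (1.96 to 14.9). Elovl3 was at 32.7 (14.5 to 50.9), Cyp26a1 at 9.18 (5.005 to 13.3), Cyp8b1 at 56.3 (31.1 to 81.6) and Cdh5 at 8.26 (4.85 to 11.7). Differences between the knockouts were not tested.

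The same genotypes were also compared in mice given ASNase, a contrast that shares no mouse with the one above. There 4.01% of 9360 eligible genes were called, 1.84% higher and 2.17% lower, and by the looser limit 3.81% were higher and 4.33% lower. Of the 60 genes called under PBS 48 were eligible, and 25 of these (52.1%) had the same sign, against 52.3% of all genes eligible in both. Of the genes called higher under PBS 11 of 29 had the same sign and of those called lower 14 of 19, against 54.0% and 49.7% of all genes higher or lower under PBS. By the call rule 18 differed in the same direction and 13 in the opposite one. Of the 18, 6 followed the muscle list, and 4 more were H19, Mlf1, Slc25a4 and Pdk4.

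The same-direction genes that rose were Tff3, Spink3, Gm9781, Mt2, Orm2 and the small nucleolar RNA Snora43. Between the ASNase groups Tff3 was at 5.83 FPKM (1.62 to 10.04) in WT and 48.9 (19.8 to 77.9) in Gcn2-/- livers, and Gm9781 at 0.0207 (0 to 0.0659) and 4.68 (2.50 to 6.87). Orm2 was at 18.5 (9.26 to 27.7) and 5535 (633 to 10437), far above the PBS value, and Saa3 at 12.2 (4.31 to 20.1) and 12427 (0 to 29543), which was not called. Gm9781 thus had a like level in Gcn2-/- livers under both treatments.

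The same-direction genes that fell and did not follow the muscle list were 6, Elovl3, Cyp8b1, Pdk4, H19, Slc25a4 and Mlf1, of which the last 4 had an r of 0.90 to 0.93 with that list. Elovl3 was at 40.7 FPKM (16.4 to 65.1) in WT ASNase and 0.111 (0 to 0.2503) in Gcn2-/- ASNase livers, and Cyp8b1 at 190 (101 to 280) and 8.22 (4.05 to 12.4). Pdk4 was at 10.8 (4.34 to 17.3) in WT ASNase and 2.22 (1.008 to 3.43) in Gcn2-/- ASNase livers. The male-biased list as a whole had a median of -2.92 over 24 genes there, but WT ASNase livers came from 2 males of 3 and Gcn2-/- ASNase livers from 1 of 3, so sex and genotype cannot be told apart for it.

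For other lists the PBS and ASNase contrasts differed in sign. Interferon-stimulated genes, lower in 33 of 40 members under PBS, were higher in 42 of 42 under ASNase, with a median of 1.48. The clock list went from 0.38 to -0.32. Kupffer cell markers went from -0.68 to 0.25, whereas the sinusoidal endothelium list stayed lower, at -0.94 and -0.49, with 12 of 15 members lower under ASNase. Acute phase proteins were higher in 30 of 32 eligible genes under ASNase, with a median of 2.98. Saa1, Saa2, Hp and Hpx are not among the 32, since the table gives no estimate for them in Gcn2-/- ASNase livers. These differences between the treatments were not tested.

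**Figure D5:**
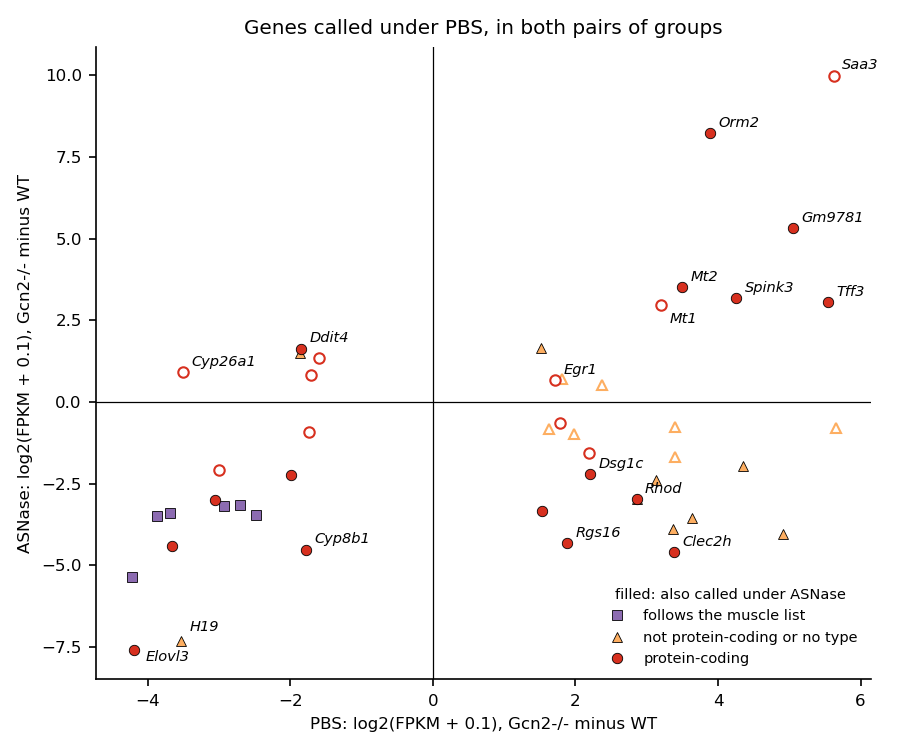
Difference of log2(FPKM + 0.1), Gcn2-/- minus WT, in PBS livers (horizontal) and in ASNase livers (vertical), for the 48 genes called under PBS and eligible in both, filled where also called under ASNase. Tff3, Gm9781, Spink3, Mt2 and Orm2 are higher in both contrasts, Elovl3 and Cyp8b1 lower in both, and Rgs16, Clec2h, Dsg1c and Rhod change sides.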

How the data were processed

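Poly-A RNA of 18 livers was sequenced, and the 6 PBS livers of WT and Gcn2-/- mice were compared here. The authors aligned reads to mm10 with TopHat and estimated expression with Cuffdiff. The deposited table holds FPKM, with a lower and an upper bound in FPKM and a status, 1 value per group from 3 libraries together. Per-library values were not used here, so the depth behind a value is unknown, its precision was taken from the interval, and no p-value was computed. All value columns were mapped to groups (0 left over). Columns hold no comparison of the authors.

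Differences of log2(FPKM + 0.1) were computed with numpy 2.4.6 and pandas 2.3.3. The FPKM limit of 3 and the log2 limit of 1.5 follow the study's methods. Gene identifiers were matched to GENCODE vM21 (35446 of 37303). Genes at 0 in 1 of the groups were left out, 101 of them otherwise over the limit, since Cuffdiff also lists genes it failed to estimate at 0. Genes were sorted by 46 lists, in which 10 symbols were not in the table. The members and lists were chosen with earlier results of these data known, and no list is independent support. Named were Eif2ak4, every called gene in a list, the 10 highest and 10 lowest other called genes, protein-coding first, and up to 4 members per list with the largest difference. Other genes named were picked after their values were seen. Some genes that the rule names are not reported here. The rule was tested on simulated data. Alternatives were another pseudocount, FPKM limit, fold limit, interval rule, scaling and gene type.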

Additional observations from a re-analysis of the deposited data

Results flagged for a closer look

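Of the 60 genes called between Gcn2-/- and WT livers under PBS, 13 were also called under ASNase in the opposite direction. Each value below is the log2 difference, Gcn2-/- minus WT, and the difference between treatments was not tested, since there is 1 value per group.

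Of these, 6 are protein-coding. Ddit4, whose protein restrains mTORC1, was lower under PBS (-1.85) and higher under ASNase (1.63), at 14.1 FPKM in WT ASNase and 44.0 in Gcn2-/- ASNase livers. Rgs16, a brake on G protein signaling, was higher under PBS (1.88) and lower under ASNase (-4.31), and Clec2h, a lectin, likewise (3.39 and -4.59). Dsg1c, a desmosomal cadherin, gave 2.204 and -2.201, D0H4S114 1.53 and -3.33, and Rhod, whose locus is shared by 3 genes, 2.86 and -2.97. In WT livers Rgs16 was at 17.8 FPKM under PBS and 95.9 under ASNase, and in Gcn2-/- livers at 65.7 and 4.75.

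The other 7 are short non-coding RNAs, which poly-A libraries do not capture by design. 7SK gave 3.13 under PBS and -2.39 under ASNase, Snora74a 3.37 and -3.87, U3 2.87 and -2.98, SNORD94 4.35 and -1.97, AC120136.1 3.64 and -3.54, and AC165349.6 4.91 and -4.03. AL845466.1, annotated as a miRNA in a locus shared by 5 genes, gave -1.87 and 1.5001. Of them, 6 were high in Gcn2-/- PBS and WT ASNase livers and low in WT PBS and Gcn2-/- ASNase livers. For 7SK these were 115 and 89.6 FPKM against 13.0 and 17.0.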

How the results depend on the processing

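The counts of called genes, 35 higher and 25 lower, moved by over 1.5 times under several settings. With FPKM over 1 in place of 3 there were 45 lower, with no FPKM limit 57 lower, and with FPKM over 10 only 16 lower. Without the condition on intervals there were 83 higher and 57 lower. Including genes listed at 0 in 1 group gave 91 higher and 57 lower, and keeping the muscle genes gave 58 lower. With protein-coding genes only there were 16 higher, and 17 higher without short RNAs, pseudogenes and genes of no matched type, a setting chosen after seeing the data. The looser limit, also chosen after seeing the data, gave 65 higher and 76 lower. The FPKM, zero, muscle and gene type settings change which genes are counted, and the interval setting and the looser limit change the call itself. Of the 39 called genes among those named, 4 lost the call with a pseudocount of 1 (D0H4S114, Egr1, Gbp10 and Hspa1b) and 1 under median-ratio scaling (D0H4S114). Over 34 lists and 102 recomputed medians, none moved by more than 0.237, and the sign turned for 4 lists whose median lay within 0.0565 of 0. The same-direction and opposite-direction counts under ASNase stayed within 1.5 times with a pseudocount of 1 and under median-ratio scaling. These settings were applied to the ASNase contrast only, with the PBS calls held fixed, so part of this stability was set in advance.

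No paired analysis was possible because the table holds 1 value per group and no value of a single library, and for the same reason no replicate was left out. A value set by 1 mouse and one shared by 3 cannot be told apart. Depth per gene is unknown, and a difference under about the looser limit was not detectable.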

Other observations

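Position on chromosome 2 was looked at after the values were seen. Of 46 eligible genes that start within 5 Mb of Eif2ak4, 6 (13.0%) were lower in Gcn2-/- livers by over 1 on the log2 scale and 0 were higher by as much. Over all 8875 genes 1.85% were lower and 1.74% higher by that size, and over the other 653 genes of chromosome 2 the shares were 1.23% and 1.53%. The median difference of the 46 genes was -0.15 against 0.05 for the rest of the chromosome.

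The 6 genes lie 0.784 to 3.06 Mb beyond the start of Eif2ak4. Pla2g4b, a phospholipase A2 (chromosome 2 from 120027493 to 120043033), was at 3.09 FPKM in WT and 0.298 in Gcn2-/- PBS livers, at 3.20 and 0.673 under ASNase, and at 3.26 in Atf4-/- PBS livers. Zfyve19, an abscission checkpoint protein, and 2310003F16Rik were lower in Gcn2-/- livers under both treatments, with log2 differences of -1.13 and -1.13 for the first and -2.15 and -1.76 for the second, and neither was called. Dnajc17, Ehd4 and AL845466.1 were lower under PBS and higher under ASNase. Neighbouring genes share a stretch of chromosome and, in AL845466.1 and others, a locus, so they are not independent of each other.

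Spink3 and Gm9781, which rose together, both lie on chromosome 18, from 43728082 to 43737557 and from 43475418 to 43477796, and both were higher in Gcn2-/- than in WT livers under PBS and under ASNase. In Atf4-/- PBS livers they were at 0.212 and 0.0306 FPKM, near the WT values. They parted in Atf4-/- ASNase livers, with Spink3 at 18.5 (5.97 to 31.1) and Gm9781 at 0.0273. Spink3 was at 1.91 (0 to 4.07) in WT ASNase and 18.1 (6.44 to 29.7) in Gcn2-/- ASNase livers, so its high level was not particular to Gcn2-/- livers.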
